A study of Mus musculus with 3 samples.

Results

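The regions described here were the Setd1a CUT & RUN peaks that lay wholly upstream of a protein-coding transcription start site (TSS) without reaching it. A peak was taken when it overlapped no TSS of a protein-coding transcript in the GENCODE M21 annotation of mm10, when its nearer edge was 1 to 1000 bp from the nearest such TSS, and when the whole peak lay upstream in the direction of transcription. This rule found 541 of the 6911 peaks on chromosomes 1 to 19 (7.83%, 95% Wilson interval 7.22 to 8.49%), out of 6969 peaks in all, and the 541 peaks belonged to 537 genes. CUT & RUN uses an antibody to direct a nuclease to a protein on chromatin, and sequences the DNA fragments that are released. It was run on quiescent adult neural stem cells (NSCs) labelled WT, at day 5, with 2 Setd1a libraries from independent cultures and 1 library with a rabbit IgG negative control antibody. The cells came from the dentate gyrus of 7 to 8 week old mice with the alleles Hopx-CreERT2::Setd1afl/fl::H2B-GFP, so the cells labelled WT carried floxed Setd1a. All 3 libraries were made from cells held in quiescence medium, which contained BMP4 and FGF2 (20 ng/ml of each) and no EGF, and the labels call the cells neural progenitor cells.

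Setd1a is the catalytic subunit of a COMPASS complex that methylates histone H3 at lysine 4, and the trimethylated form of this mark is found at active promoters. Most mammalian promoters lie in CpG islands, where transcription often starts in both directions, with a coding transcript on one side and a short-lived noncoding transcript on the other. The stretch just before a coding TSS holds much of the core and proximal promoter, with the sites of factors such as SP1, NF-Y, NRF1 and SRF.

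The following 6 peaks are shown to give the letters behind the results, chosen after their values were seen: an immediate-early gene, an antiproliferative gene, the receptor of the BMP4 in the medium, a clock repressor, a lineage factor and a gene with a noncoding gene starting in its peak. Each sequence is the part of the peak nearest to the TSS, at most 300 bp, on the coding strand from 5′ to 3′, in GRCm38 (mm10). Capitals mark matches, on either strand, to the GC box, CCAAT box, TATA box, E-box or CArG box. Fos is at chr12:85473517-85473816 on the plus strand, Btg1 at chr10:96616625-96616924 on the plus strand, Bmpr1a at chr14:34503403-34503702 on the minus strand, Bhlhe40 at chr6:108660158-108660457 on the plus strand, Olig2 at chr16:91225125-91225424 on the plus strand and Fbxl5 at chr5:43782204-43782484 on the minus strand.
Fos: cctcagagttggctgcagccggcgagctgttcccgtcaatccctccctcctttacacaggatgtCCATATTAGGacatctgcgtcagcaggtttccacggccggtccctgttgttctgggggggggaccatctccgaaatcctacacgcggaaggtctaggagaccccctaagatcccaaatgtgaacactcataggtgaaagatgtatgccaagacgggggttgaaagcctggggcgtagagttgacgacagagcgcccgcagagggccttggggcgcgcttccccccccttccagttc
Btg1: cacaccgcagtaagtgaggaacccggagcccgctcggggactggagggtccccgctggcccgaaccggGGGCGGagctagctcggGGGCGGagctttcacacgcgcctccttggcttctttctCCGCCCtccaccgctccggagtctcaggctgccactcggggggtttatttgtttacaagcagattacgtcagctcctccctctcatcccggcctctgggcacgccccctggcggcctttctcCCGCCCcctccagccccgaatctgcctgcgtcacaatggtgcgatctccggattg
Bmpr1a: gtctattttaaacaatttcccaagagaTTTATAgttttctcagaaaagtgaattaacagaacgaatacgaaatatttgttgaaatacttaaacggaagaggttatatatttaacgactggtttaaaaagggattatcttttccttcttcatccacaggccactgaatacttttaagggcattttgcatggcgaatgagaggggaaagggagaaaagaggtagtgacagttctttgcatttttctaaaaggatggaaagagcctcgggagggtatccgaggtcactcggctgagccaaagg
Bhlhe40: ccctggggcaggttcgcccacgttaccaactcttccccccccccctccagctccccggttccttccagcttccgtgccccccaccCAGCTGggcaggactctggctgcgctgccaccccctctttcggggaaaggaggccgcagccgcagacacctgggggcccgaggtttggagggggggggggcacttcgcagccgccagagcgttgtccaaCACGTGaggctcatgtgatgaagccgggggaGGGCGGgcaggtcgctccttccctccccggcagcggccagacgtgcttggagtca
Olig2: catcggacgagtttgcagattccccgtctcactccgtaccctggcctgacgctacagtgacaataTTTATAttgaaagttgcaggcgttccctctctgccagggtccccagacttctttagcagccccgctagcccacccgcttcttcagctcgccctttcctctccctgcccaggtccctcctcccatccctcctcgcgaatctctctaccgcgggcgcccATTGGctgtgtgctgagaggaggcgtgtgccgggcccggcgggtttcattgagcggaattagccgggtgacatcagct
Fbxl5: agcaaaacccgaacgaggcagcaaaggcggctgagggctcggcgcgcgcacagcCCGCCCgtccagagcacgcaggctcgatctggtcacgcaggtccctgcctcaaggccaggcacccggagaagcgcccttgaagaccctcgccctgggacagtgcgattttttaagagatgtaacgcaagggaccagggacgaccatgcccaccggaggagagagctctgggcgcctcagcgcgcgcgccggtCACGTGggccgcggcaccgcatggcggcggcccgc

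Fos held a CArG box, the site of SRF, at positions -309 to -300 relative to its TSS. Btg1 held 4 GC boxes, between -313 and -131. The Bmpr1a stretch held a single match of the list, a reverse TATA box at -334 to -329. Bhlhe40 held an E-box of the kind CACGTG at -257 to -252 and a GC box at -226 to -221, and Fbxl5 held the same kind of E-box at -88 to -83. Olig2 held a CCAAT box on the other strand at -110 to -106. A match to a short motif is a description of the letters and does not show that a factor was bound there.

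The deposited data give the position of each peak, in a single list of the peaks shared by both Setd1a libraries. The list has no height, score or value per library, so no value per sample, no spread between cultures and no background in IgG could be given, and the depth of the libraries is unknown. The intervals given for shares reflect the number of peaks counted and no other error. Of 13 NSC marker genes, 7 had a peak over a coding TSS or within 1000 bp of one, among them Sox2, Gfap and Id4 with an upstream peak, beside 20.6% of all coding genes (4283 of 20757). Of 6 oligodendrocyte lineage markers 3 had such a peak. The counts were 0 of 5 neuron markers, 0 of 6 microglia markers and 0 of 5 endothelial markers on these chromosomes, lists too short for a count of 0 to be set apart from that share.

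The genes with an upstream peak included regulators that respond within minutes to a stimulus. Of 42 immediate-early and stress-response genes, 9 had an upstream peak (21.4%), beside 2.59% of all 20757 coding genes on these chromosomes. They were Fos, Jun, Junb and Egr2, which encode transcription factors of the first wave after stimulation; Nr4a3, an orphan nuclear receptor; Ddit3, the stress factor also called CHOP; Btg1, an antiproliferative gene; and Gadd45b and Gadd45g, which respond to growth arrest and DNA damage. A peak over a coding TSS was found at 15 of the 42 genes (35.7%), beside 16.2% of all coding genes, and a peak wholly downstream of a coding TSS, within 1000 bp, at 6 (14.3%), beside 2.71% of all coding genes. These lists were chosen with earlier results of the data known, and their counts are given as descriptions with no test.

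The 9 peaks of this group differed in place and in sequence. The peaks of Fos, Egr2, Btg1 and Junb ended 74, 79, 82 and 102 bp before the TSS. Those of Nr4a3, Ddit3, Gadd45g, Jun and Gadd45b ended 211, 456, 456, 676 and 948 bp before it. Junb had one of the widest peaks, 1178 bp at chr8:84978820-84979997, and Fos one of 673 bp at chr12:85473144-85473816. At Jun, Gadd45b and Gadd45g a further peak covered the TSS itself, at a distance of 495, 481 and 435 bp from the upstream peak. A CArG box was found in 2 of the 9 peaks, Fos and Egr2, in Egr2 at -375 to -366. Over all upstream peaks, 14 of 541 held a CArG box (2.59%). In Egr2 the TSS used was an inner one of the gene, and the RefSeq TSS of Egr2 lay inside the peak, so the peak was upstream by the GENCODE coding transcript and not by RefSeq.

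Of 27 BMP pathway and Id genes, 6 had an upstream peak (22.2%), beside 2.59% of all coding genes. A downstream peak was found at 2 (7.41%), beside 2.71% of all coding genes, and a peak over a coding TSS at 6 (22.2%), beside 16.2%. Bmpr1a, a type I BMP receptor, had a peak that ended 62 bp before the TSS and was poor in CpG, with 8 CpGs in 350 bp and 38.9% GC. Smad4, the partner of all receptor-activated Smads, had one of the narrowest peaks named here, 249 bp, 122 bp from the TSS. Smad3, which transmits TGF-β and activin signals, and the inhibitory Smad6 had peaks that ended 521 and 732 bp from the TSS. Ski encodes a corepressor that binds Smads, and its peak of 637 bp had 73.0% GC and 75 CpGs. Id4, an inhibitor of bHLH factors and a BMP target that maintains quiescent NSCs, had a peak ending 511 bp upstream and a second one, 244 bp further on, over the TSS. The Smad3 TSS was an inner one of its gene, while those of the other 5 were the outermost.

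Among 37 NSC transcription factors, 5 had an upstream peak (13.5%), beside 2.59% of all coding genes: Sox2, Nfia, Foxo3, Tcf3 and Hmga2. A downstream peak was found at 6 of the 37 (16.2%), beside 2.71% of all coding genes. A peak over a coding TSS was found at 4 (10.8%), beside 16.2% of all coding genes. Sox2, which maintains neural stem and progenitor cells, had a peak of 832 bp at chr3:34649470-34650301 that ended 104 bp before the GENCODE TSS. The RefSeq TSS of Sox2 lay inside it, and a further peak began 349 bp away. Foxo3, a forkhead factor needed to keep adult NSCs, had a peak of 1127 bp, 633 bp from the TSS, with 108 CpGs. The peaks of Nfia, a driver of gliogenesis, and Hmga2, a chromatin protein of self-renewing progenitors, ended 332 and 339 bp from their TSSs. The Nfia TSS was an inner one of its gene, and the Nfia peak overlapped a transcript of that gene. Tcf3, which encodes bHLH E proteins, had a peak of 464 bp that ended 77 bp from its TSS.

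Gfap, the intermediate filament gene of astrocytes and radial glia-like NSCs, had the second widest upstream peak. It spanned 1663 bp at chr11:102897747-102899409, from 547 to 2209 bp before the TSS, and was wider than 99.3% of all peaks on chromosomes 1 to 19. It was also far from a CpG island in composition, with a ratio of observed to expected CpG of 0.188, where the median upstream peak had 0.690. The Gfap peak overlapped a transcript of its own gene, while the TSS used was the outermost coding TSS. Olig2, the bHLH factor of the oligodendrocyte lineage, had a CpG-dense peak of 424 bp that ended 33 bp before the TSS.

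Both members of the Bhlhe40 family were in the set. They encode transcriptional repressors that bind E-boxes and feed back on the circadian clock. Of 23 clock and circadian output genes they were the 2 with an upstream peak (8.70%), beside 2.59% of all coding genes. A peak over a coding TSS was found at 11 of the 23 (47.8%), beside 16.2% of all coding genes, and a downstream peak at 1 (4.35%), beside 2.71%. Bhlhe40 had the third widest peak, 1631 bp at chr6:108658827-108660457, which ended 172 bp before the TSS and held 108 CpGs. The Bhlhe41 peak, 786 bp at chr6:145866361-145867146, ended 803 bp before its TSS. Both peaks held a CACGTG E-box. With Fbxl5, a ubiquitin ligase subunit that controls iron balance, they made up 3 of the 5 autosomal genes named for this experiment in the running text or the signal tracks of the study. That list was chosen by the study on these libraries and is no independent evidence. The Fbxl5 TSS was an inner one of its gene, and the Fbxl5 peak overlapped a transcript of that gene.

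Chromatin regulators were also present. Kmt2e, which encodes a PHD and SET domain protein related to the H3K4 methyltransferases, had the widest upstream peak of all, 1722 bp at chr5:23432555-23434276. Of 28 genes for H3K4 methyltransferases, their partners and demethylases, 2 had an upstream peak (7.14%), beside 2.59% of all coding genes. A peak over a coding TSS was found at 11 (39.3%), beside 16.2% of all coding genes. The 2 with an upstream peak were Setd1b, the paralog of Setd1a, with a peak 526 bp from the TSS, and Rcor3, a partner of the demethylase LSD1, with a peak 100 bp from it. The other peaks among the 10 widest belonged to Camta1, a calmodulin-binding transcription activator (1256 bp), Slc25a28, a mitochondrial iron carrier (1244 bp), Fbxw7, a ubiquitin ligase subunit that targets cyclin E and Notch (1210 bp), Lrp1, an endocytic receptor (1173 bp), and Mypop, a Myb-related repressor (1083 bp).

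The upstream shares of other pathways were near the 2.59% of all coding genes. Their shares for a peak over a coding TSS were above the 16.2% of all coding genes. Of 30 Notch pathway genes, 0 had an upstream peak (0%) and 8 a peak over a coding TSS (26.7%). Of 49 ribosome and translation genes, 22 had a peak over a coding TSS (44.9%). An upstream peak was found at 2 (4.08%), the helicase gene Eif4a1 and the elongation factor gene Eef2. Of 40 cell cycle genes, 9 had a peak over a coding TSS (22.5%), and 1 had an upstream peak (2.50%): E2f3, a regulator of S phase entry, with its edge 7 bp from the TSS. The shares of these lists beside all coding genes are drawn in the bar plot of gene lists.

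**Figure D1:**
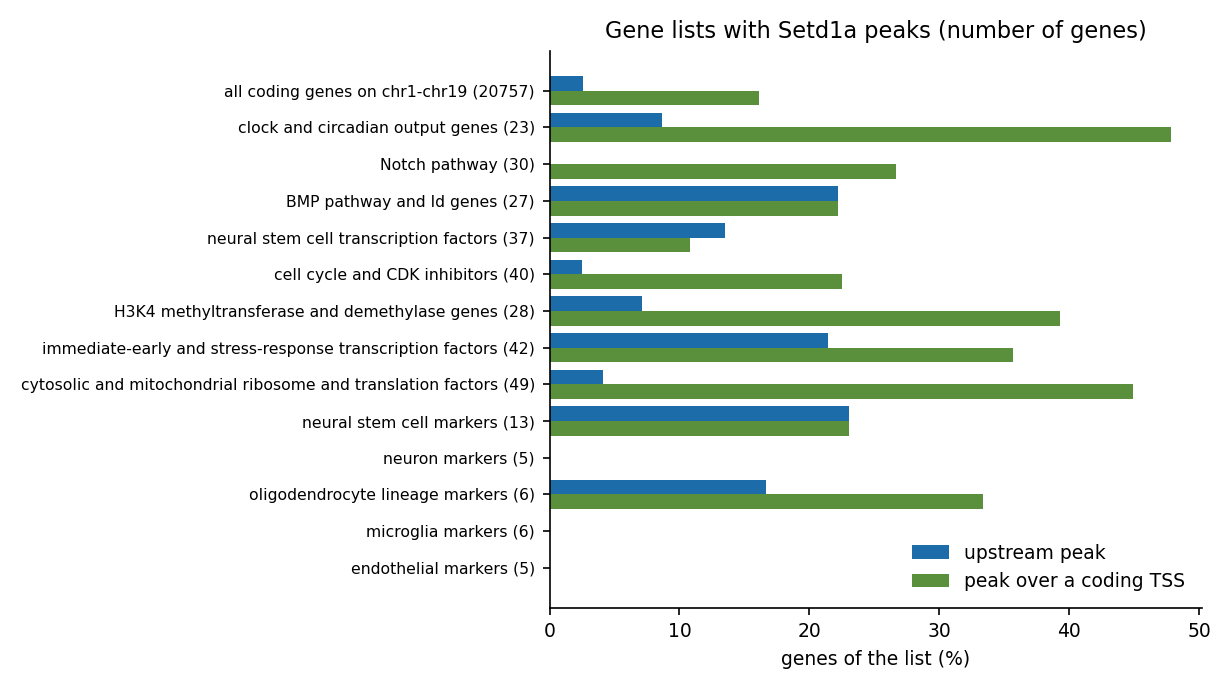
Share of genes (%) in each gene list, with the number of genes on chromosomes 1 to 19 in brackets, that had an upstream peak (blue) or a peak over a coding TSS (green). Immediate-early and stress-response genes, BMP pathway and Id genes and NSC markers reached 21.4%, 22.2% and 23.1% for upstream peaks, beside 2.59% of all coding genes. For peaks over a coding TSS these lists stood at 35.7%, 22.2% and 23.1%, beside 16.2%.

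**Figure D2:**
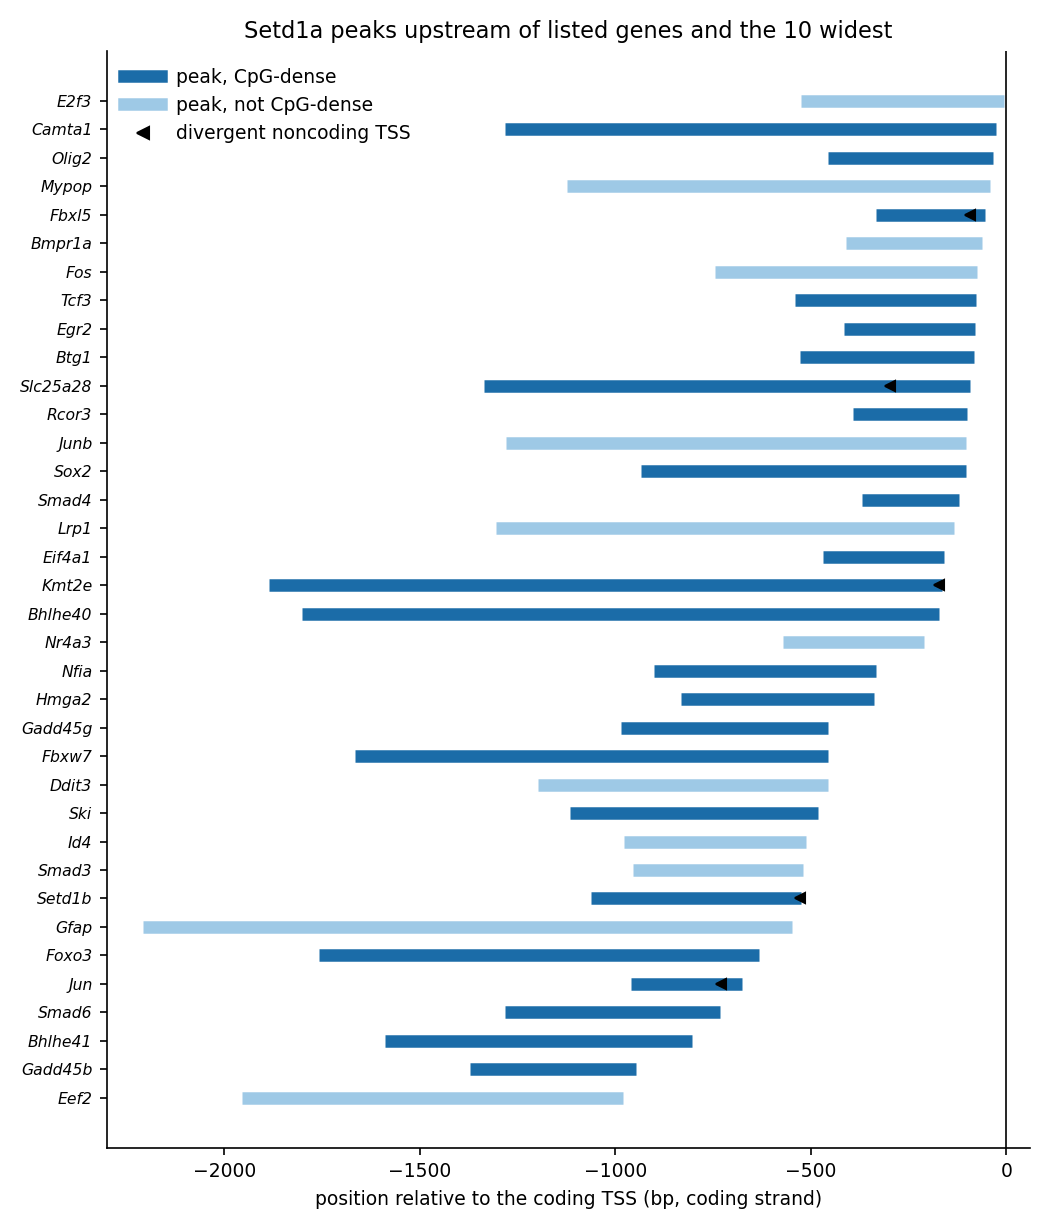
Extent of the upstream peak of each gene that is in a gene list or has one of the 10 widest peaks, from its far to its near edge, in bp from the coding TSS at 0 on the coding strand; dark bars are CpG-dense peaks, light bars are not, and arrowheads are TSSs of divergent noncoding genes inside the peak. The near edges run from 7 bp (E2f3) to 980 bp (Eef2), and the Gfap peak reaches back to 2209 bp.

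Upstream peaks mostly ended close to the TSS. The median distance from the nearer edge was 135 bp (quartiles 58 and 275 bp), and 350 of the 541 peaks (64.7%) lay within 200 bp. Downstream peaks were alike in this, with a median of 108 bp and 372 of 571 (65.1%) within 200 bp. The position covered by most upstream peaks was 283 bp before the TSS, which 73.8% of them covered. The widths of upstream peaks ran from 233 to 1722 bp with a median of 391 bp, beside a median of 465 bp over all peaks on these chromosomes. Downstream peaks had a median of 377 bp and peaks over a coding TSS one of 603 bp. The rule leaves out peaks that reach a TSS and so itself favours narrow peaks. At the near limit, 6 peaks ended 1 bp short of a TSS, at Bcl2l11, a proapoptotic BCL2 family gene, Msi2, an RNA-binding protein of neural progenitors, Psmd5, a proteasome assembly factor, Rfwd3, Rnf44 and Zfp397. The limit has no gap around it: 26 upstream peaks ended within 10 bp of the TSS, while 47 peaks counted as over a TSS reached 0 to 9 bp past it from upstream. At the far limit, the last 4 peaks inside were those of Gadd45b at 948, Rasgrp4 at 965, Eef2 at 980 and Adgrl3 at 986 bp. The first 4 outside were at 1035 (Gm10718), 1054 (Plekhb1), 1077 (Hes1) and 1089 bp (Gm10135).

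**Figure D3:**
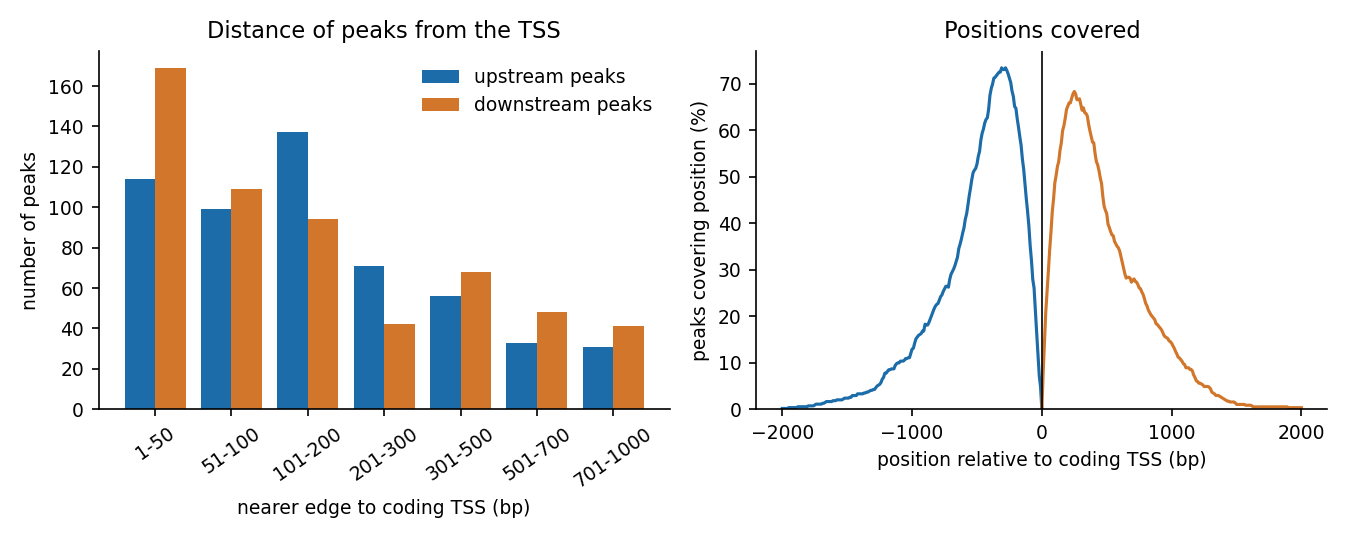
Left, number of peaks by the distance in bp of their nearer edge from the coding TSS, for the 541 upstream and 571 downstream peaks; right, share of these peaks (%) that cover each position relative to the TSS. The right panel tops out at 73.8% of upstream peaks 283 bp before the TSS and at 68.3% of downstream peaks 250 bp after it.

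Most of these genes had no other peak at their start. For 444 peaks (82.1%) no further peak lay within 1000 bp, and for 65 another peak covered a coding TSS of the same gene, the same TSS in 24 cases. The TSS was the outermost coding TSS of its gene for 450 peaks (83.2%), and 123 peaks (22.7%) overlapped a transcript of their own gene. The RefSeq TSS lay inside the peak for 35 of the 434 peaks whose gene was found in the RefSeq promoter table (8.06%). There were 4 genes with 2 upstream peaks each: Pax5, a B cell and midbrain transcription factor, Mex3b, an RNA-binding protein, Zfp668, a zinc finger gene, and Rcan1, a calcineurin inhibitor. The 2 Rcan1 peaks lay at separate promoters, 65316 bp apart, and those of the other 3 genes 383 to 553 bp apart. A further 4 peaks stood in the first part of chromosome 9, between 3000089 and 3036687, at the predicted genes Gm10715, Gm10717, Gm10719 and Gm10722, whose sequences are partly copies of one another: 42.3 to 70.4% of the 21 bp words of each peak recurred in the other 3. How reads mapped there was not examined, so these 4 are given as uncertain, and 537 peaks remain without them.

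The peaks most like these were the 571 that lay wholly downstream of a coding TSS at the same distances. The CpG content of the 2 groups differed. A peak was called CpG-dense when its GC content was at least 50% and its ratio of observed to expected CpG at least 0.6. By this definition 332 of 541 upstream peaks were CpG-dense (61.4%, 57.2 to 65.4%), against 411 of 571 downstream peaks (72.0%, 68.2 to 75.5%), with an odds ratio of 0.618 (0.481 to 0.795, adjusted p = 0.000969, two-sided Fisher's exact test over peaks, adjusted over 18 tests). Of the 3032 peaks over a coding TSS, 90.5% were CpG-dense (odds ratio 0.167, 0.135 to 0.206, adjusted p = 1.74e-56 by the same exact test). Around TSSs under a peak there were 10.5 CpGs per 100 bp at -50 to 0, 6.46 at -250 to -200 and 9.68 at 200 to 250. The rule keeps upstream peaks off the TSS and on the side where CpG falls faster. How much of either difference follows from that was not tested. Peaks near one another or at 1 gene are not independent, and these p-values describe the list and not the variation between cultures. The median GC content was 58.3% in upstream, 65.8% in downstream and 64.2% in TSS peaks.

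By distance, given as a description, the CpG-dense share of upstream peaks went from 74.6% of the 114 peaks within 50 bp of the TSS to 45.2% of the 31 peaks at 701 to 1000 bp. Downstream peaks went from 87.0% of 169 to 36.6% of 41 at the same distances. The upstream share was the lower one in each bin up to 500 bp. Beyond that it was the higher one, with 48.5% against 41.7% at 501 to 700 bp. The 209 peaks that were not CpG-dense had a median distance of 190 bp, against 111.5 bp for the CpG-dense ones. They included Fos, Junb, Nr4a3, Ddit3, Bmpr1a, Smad3, Id4 and Gfap. Taken over all 541 upstream peaks, CpG-dense or not, the TSSs themselves were not poor in CpG. Values for the TSSs of the 209 peaks alone are not given. Around the TSSs with an upstream peak, CpG density was highest in the 50 bp just after the TSS, at 10.6 CpGs per 100 bp, and for 457 of 541 peaks (84.5%) the 300 bp centred on the TSS were denser in CpG than the peak. The median was 9.67 CpGs per 100 bp in that window and 5.81 in the peak. For downstream peaks the window was the denser one in 328 of 571 cases (57.4%), with medians of 9.33 and 8.35. The rule keeps both groups off the TSS, where CpG is dense, and so itself favours a denser window.

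**Figure D4:**
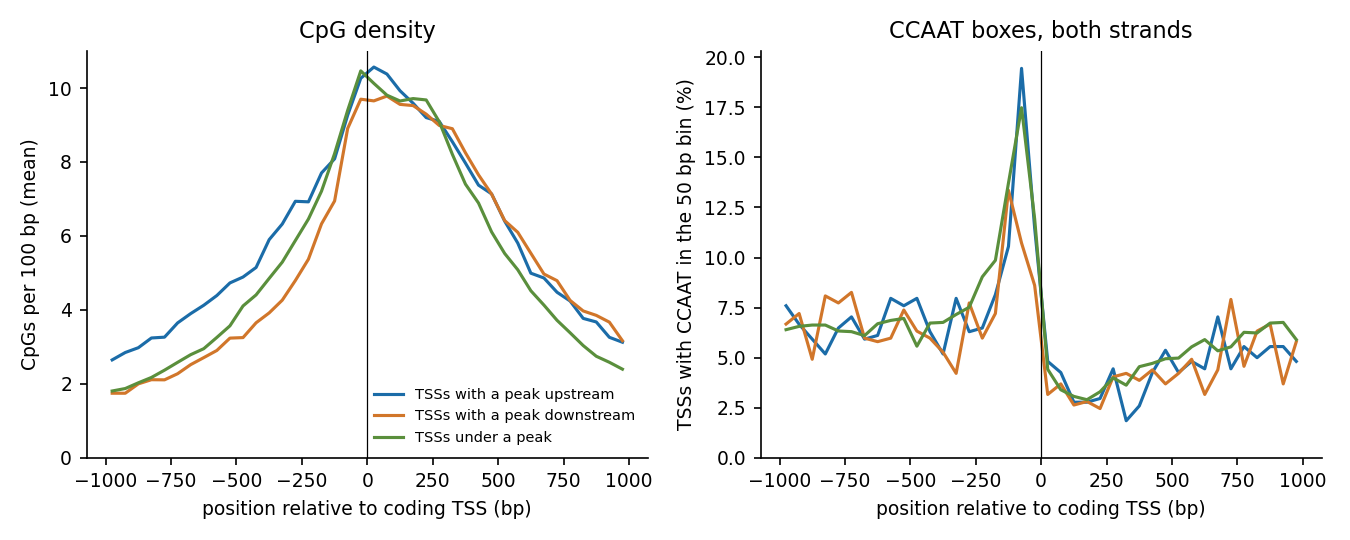
Mean number of CpGs per 100 bp (left) and share of TSSs with a CCAAT box on either strand (%, right) in 50 bp bins from 1000 bp before to 1000 bp after the coding TSS, for TSSs with an upstream peak, with a downstream peak and under a peak. The CpG curve of TSSs with an upstream peak tops out at 10.6 just after the TSS, and their CCAAT share at 19.4% from 100 to 50 bp before it.

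Sequence motifs were searched on both strands in the 300 bp around each peak's midpoint. The CCAAT box, the site of NF-Y, was in 184 upstream peaks (34.0%, 30.1 to 38.1%) and in 112 downstream peaks (19.6%, 16.6 to 23.1%), an odds ratio of 2.11 (1.61 to 2.77, adjusted p = 6.47e-07, two-sided Fisher's exact test). Peaks over a TSS held it at 34.2%, and 38.5% of 15684 RefSeq coding promoters of the same length did. Among CpG-dense peaks the box was in 36.4% of upstream against 15.8% of downstream ones, and among peaks that were not CpG-dense the shares were 30.1% and 29.4%. That split was chosen after the data were seen, and the difference between the strata was not tested. The 200 bp just before the TSS held a CCAAT box at 34.3% of TSSs with an upstream and 30.4% of TSSs with a downstream peak. The box was most frequent at -100 to -50 for the former (19.4%) and at -150 to -100 for the latter (13.4%). A peak wholly after the TSS cannot contain that stretch, so the rule itself favours the box in upstream peaks. Whether anything else adds to the difference was not tested. Over the whole length of the peaks there were 420 CCAAT boxes in 233 upstream peaks, 202 of them on the other strand. Named genes with a CCAAT box anywhere in the peak included Junb, Egr2, Sox2, Olig2, Nfia, Foxo3, Bhlhe40 and Gfap, and also others such as Ddit3, Tcf3, Smad6 and E2f3.

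Of the other 11 motifs, 2 passed the test. The NRF1 site GCATGCGC, of a factor that controls mitochondrial genes, was in 19 upstream peaks (3.51%) and 7 downstream peaks (1.23%), an odds ratio of 2.93 (1.22 to 7.03, adjusted p = 0.0406, two-sided Fisher's exact test). The YY1 site AAGATGGCG was in 1 upstream peak (0.185%) and 10 downstream peaks (1.75%), an odds ratio of 0.104 (0.0133 to 0.814, adjusted p = 0.0349, same exact test), and in 4.45% of TSS peaks. Both rest on few peaks and on the settings listed in the closing section. As with the CCAAT box, the rule puts the 2 groups on opposite sides of the TSS. How much of either difference follows from that was not tested. The GC box GGGCGG was in 48.2% of upstream and 53.6% of downstream peaks (odds ratio 0.807, 0.638 to 1.02, adjusted p = 0.139, same exact test) and in 71.8% of TSS peaks. The E-box CACGTG was in 8.13% and 5.95%, the E-box CAGCTG in 15.9% and 15.1%, and the ETS site CCGGAAG in 8.32% and 8.06%. The SOX site ACAAAG was in 17.9% and 15.6%, the AP-1 site TGACTCA in 4.07% and 2.63%, the TATA box TATAAA in 4.81% and 2.80%, and the CRE TGACGTCA in 1.11% and 1.05%. None of these passed the test. The palindromic NFI site was found in 0 of 541 upstream peaks, which allows a share of up to 0.705% by the Wilson interval. No motif of the list was found in 95 upstream peaks (17.6%).

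**Figure D5:**
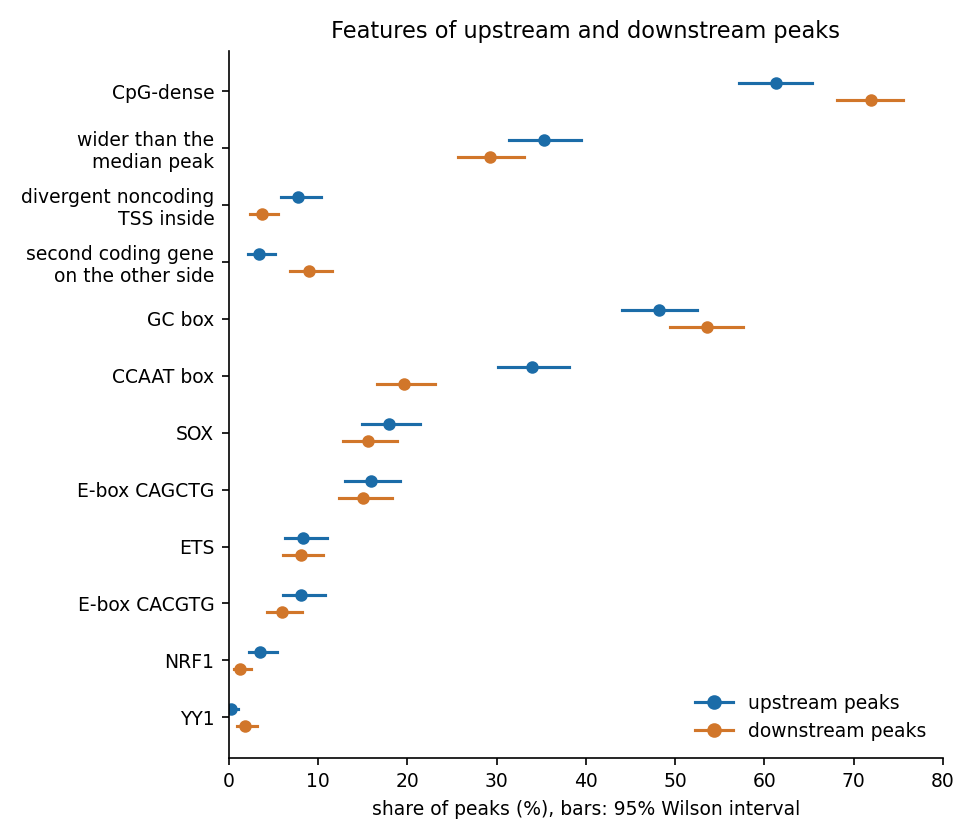
Share of upstream (blue) and downstream (orange) peaks with each feature (%), with 95% Wilson intervals over 541 and 571 peaks. The CCAAT box stands at 34.0% and 19.6%, and CpG-dense peaks at 61.4% and 72.0%.

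Some upstream peaks held the start of a noncoding gene that ran away from the coding TSS of the peak. A TSS of a divergent noncoding gene lay inside 42 of 541 upstream peaks (7.76%, 5.79 to 10.3%), against an opposite-strand noncoding TSS in 21 of 571 downstream peaks (3.68%, 2.42 to 5.56%), an odds ratio of 2.204 (1.29 to 3.77, adjusted p = 0.0145, two-sided Fisher's exact test). The 2 counts differ in geometry, because an opposite-strand transcript that starts in a downstream peak runs back towards the coding TSS and not away from it. The difference no longer passed with the outermost TSS of each gene alone (odds ratio 1.61) or with peaks of at least 300 bp (1.66). With noncoding TSSs on either strand the counts were 43 and 26 (odds ratio 1.81, 1.10 to 2.99, adjusted p = 0.0554, same exact test), so 1 upstream peak held a noncoding TSS on the same strand alone. This direction turned round, to an odds ratio of 0.423, when every noncoding transcript was counted, also those of coding genes. The 2 TSSs of a divergent pair were 55 to 739 bp apart, with a median of 244 bp, and 37 of the 42 peaks were CpG-dense. The noncoding partner of Kmt2e was 5031425E22Rik, 172 bp away, and that of Setd5, a further SET domain gene, was Gt(ROSA)26Sor, 174 bp away. Junos started 729 bp from Jun and AI480526 527 bp from Setd1b. Gm43182 started 93 bp from the inner Fbxl5 TSS used here, inside the Fbxl5 gene, and ran antisense to it. Further pairs were at Msi2, at the actin gene Actg1, at Cycs, which encodes cytochrome c, and at the transcription factor gene Irf2.

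A second coding gene on the opposite strand, with the peak upstream of both, was found for 18 upstream peaks (3.33%). Among downstream peaks 51 (8.93%) had an opposite-strand coding gene that they lay upstream of (odds ratio 0.351, 0.202 to 0.609, adjusted p = 0.000583, two-sided Fisher's exact test). The 2 counts differ in geometry, because an upstream peak must fit between both TSSs and a downstream peak need not. The pairs were 276 to 1756 bp apart. They included Srsf2, a splicing factor, with Mfsd11; Rhoa, a GTPase of the cytoskeleton, with Tcta; Gabpa, an ETS factor, with Atp5j; Hspa1l with Hspa1a, which are heat shock genes; and Ddit3 with Mbd6. Upstream peaks were wider than the median peak in 191 cases (35.3%) and downstream peaks in 167 (29.2%), a difference that did not pass the test (odds ratio 1.32, 1.03 to 1.70, adjusted p = 0.0681, two-sided Fisher's exact test).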

How the data were processed

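The authors trimmed the reads with Trimmomatic 0.32, kept reads that mapped once to mm10 with Bowtie2 2.1.0 and SAMtools 0.1.18, called peaks in each Setd1a library with MACS2 2.2.8 and deposited those shared by both libraries as 1 list. The deposited values are peak start and end positions in bp, read as counted from 1. These are the intersected peaks of both libraries. Which boundaries an intersected peak kept, and whether IgG served as the control, is not given in the sources used here.

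Peaks were placed on GENCODE M21 (GRCm38, the mm10 build) with Python 3.11.15, pandas 2.3.3 and pysam 0.24.0, and indexed with samtools 1.23.1. A peak belonged to the gene of its nearest coding TSS, measured from the nearer edge. Shares have 95% Wilson intervals. Upstream peaks were compared with downstream peaks, or with peaks over a coding TSS, by two-sided Fisher's exact tests in scipy 1.17.1, with Benjamini-Hochberg adjustment over 18 tests and a threshold of 0.05. The classification and the test were first tested on simulated data. Motif shares over promoters used RefSeq sequences from 250 bp before to 50 bp after the TSS. Figures were drawn with matplotlib 3.10.9.

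The members and gene lists were chosen with earlier results of these data known. The genes named are those in the gene lists or named by the study with an upstream peak, those of the 10 widest, 5 nearest and 5 farthest peaks, and those with 2 or more peaks. Genes named as examples of noncoding or head-to-head pairs, the printed sequences and the CArG box search were chosen after the values were seen. Alternatives covered the window, the coding transcripts, the edge used, peak width, merging, the CpG definition, the sequence window and the noncoding transcripts counted, and 4 more were added after the data were seen.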

Additional observations from a re-analysis of the deposited data

Results flagged for a closer look

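Chromosomes X and Y lie outside the rule and hold 39 of the peaks. By the same rule 4 of these were upstream of a coding TSS, all on X: Pgk1, a glycolytic enzyme gene, with the peak 14 bp from the TSS, Eif2s3x, a translation initiation factor gene, at 279 bp, Otud5, a deubiquitinase gene, at 304 bp, and Hcfc1, a cofactor of chromatin complexes that include Setd1a, at 676 bp. There is no value for IgG in the list to set beside them.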

How the results depend on the processing

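The lower share of CpG-dense upstream peaks held under all alternatives run, with odds ratios of 0.363 to 0.700 against downstream and 0.141 to 0.218 against TSS peaks. These took the distances of a window together, and in the bins beyond 500 bp the upstream share was higher than the downstream one. The lower count of head-to-head genes also held (0.232 to 0.629), in a comparison whose 2 groups differ in geometry as stated above. The CCAAT difference passed the test under 11 of 12 alternatives, the exception being peaks that were not CpG-dense (odds ratio 1.04). In all of them the 2 groups lay on opposite sides of the TSS. The odds ratio for divergent noncoding TSSs no longer passed with the outermost TSS of each gene (1.61) and with peaks of at least 300 bp (1.66). For noncoding TSSs on either strand it passed with a window of 500 bp (2.11) or 2000 bp (1.80), basic transcripts (2.02), midpoint distances (1.41), merged peaks (2.16) and RefSeq TSSs (2.13), and turned round when every noncoding transcript was counted, also those of coding genes (0.423). The width comparison passed with basic transcripts (1.35) and midpoint distances (1.40) and turned round with the outermost TSS (0.919). The number of motifs past the test was 1 with basic transcripts, 5 with midpoint distances and 0 in peaks that were not CpG-dense, where the NRF1 odds ratio was 0.506. NRF1 passed under 5 of 12 alternatives and YY1 under 5 of 11, the one without a value being peaks that were not CpG-dense, where neither group held the site. With midpoint distances, which admit peaks that overlap the TSS, there were 1961 upstream peaks at 1930 genes. The causes of the other shifts were not tested. No paired analysis was possible because both libraries went into 1 list, and for the same reason no library could be left out. Depth is unknown, so a gene without a peak is known only to be missing from this list.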
